A study of Mus musculus with 8 samples.

Results

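The genes described here carry glucose from hexokinase to lactate and store it as glycogen: 36 genes for the enzymes of glycolysis, the switch enzymes around fructose 2,6-bisphosphate, lactate dehydrogenase and its carriers, and glycogen synthesis and breakdown. They were taken by name from the 49315 genes counted in mouse hearts. The rule lists names and uses no measured value, but the names were chosen with earlier results of these data known. All 36 matched a row and passed the filter on low counts that left 16180 genes for testing. Hearts were dissected from C57BL/6 mice of 8 weeks, an inbred strain for which the labels name no treatment or altered allele. The 8 RNA-seq libraries form a group of 4 from females and a group of 4 from males. Whether each library came from its own animal, and which part of the heart was taken, is not given in the sources used here, so p-values measure the spread between these libraries, which may be partly technical.

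Total counts lay between 32746054 and 35467832 in the female and between 39612848 and 47097765 in the male libraries. Counts of Xist (5879 to 7509 in females, 8 to 16 in males) and of the Y-linked Kdm5d (0 in females, 739 to 958 in males) matched the sex on each label. No marker of the 12 cell types checked was at 0 counts. Ventricular cardiomyocyte markers summed to between 67246 and 75443 CPM (a gene's counts per 1000000 counts of its library) in all libraries. Atrial cardiomyocyte markers summed to 438.1 CPM in male library 4 against 2171 to 2636 in the other 7, so that library stands apart. White adipocyte markers summed to 72.4 to 133.0 CPM in females and 13.2 to 39.8 in males, with 7 of 7 markers higher in females. Summed markers also did not overlap between the sexes for brown adipocytes (43.9 to 133.3 CPM in females, 29.8 to 40.5 in males), fibroblasts (880.6 to 895.3 and 750.0 to 854.2), smooth muscle (215.7 to 257.1 and 161.7 to 201.5) and liver (38.3 to 44.4 and 49.9 to 65.3, with 2 of 6 markers called higher in males). In a bulk sample, fewer cells of a type and less RNA per cell cannot be told apart.

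Glycolysis splits glucose into pyruvate with a small yield of ATP, and lactate dehydrogenase interconverts pyruvate and lactate. The adult heart lives mainly on fatty acids and lactate, and keeps glycolysis and a glycogen store as reserves for work and for lack of oxygen. Many steps are run by a choice of paralogs, of which one form is typical of muscle and another of liver, brain or growing cells. Fructose 2,6-bisphosphate, made and removed by the Pfkfb enzymes, is the strongest activator of phosphofructokinase, the committed step.

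Of the 36 genes, 4 differed between the sexes at an adjusted p below 0.05 (edgeR quasi-likelihood test with Benjamini-Hochberg adjustment over all 16180 genes), where 3.79% of all genes tested did. Pfkfb1 and Ldhb were higher in males, where 2.03% of all genes were called in that direction, and Eno1 and Pygl were higher in females, where 1.76% were. Every one of the 4 differences was modest: 1.19-fold for Pfkfb1, 1.11-fold for Ldhb, 1.14-fold for Eno1 and 1.51-fold for Pygl. None of the 4 calls held in all 8 fits that left out 1 library. Without male library 4, the one low in atrial markers, the log2 differences (male minus female) were 0.26 for Pfkfb1, 0.14 for Ldhb, -0.17 for Eno1 and -0.65 for Pygl, with adjusted p of 0.082, 0.075, 0.051 and 0.051 (edgeR), and no gene of the 36 was called although 9 had an unadjusted p below 0.05. The promoters of these 4 genes, and that of Ldha, the partner of Ldhb, are shown here because they are the regulatory sequences next to the differences. Each is the 250 bases before the RefSeq start on GRCm38.p6, 5′ to 3′ on the strand of the gene, and capitals mark matches on either strand to 3 motifs. These are the core of the hypoxia response element, ACGTG, then the E-box bound by Myc and ChREBP, which reads CACGTG, and the GC box of Sp1 type, which reads GGGCGG.
Pfkfb1, chrX:150589666-150589915, plus strand: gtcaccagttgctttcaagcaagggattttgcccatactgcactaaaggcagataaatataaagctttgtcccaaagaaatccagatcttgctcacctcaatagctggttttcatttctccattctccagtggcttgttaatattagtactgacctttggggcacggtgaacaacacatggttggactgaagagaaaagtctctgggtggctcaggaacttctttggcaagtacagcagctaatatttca
Eno1, chr4:150236458-150236707, plus strand: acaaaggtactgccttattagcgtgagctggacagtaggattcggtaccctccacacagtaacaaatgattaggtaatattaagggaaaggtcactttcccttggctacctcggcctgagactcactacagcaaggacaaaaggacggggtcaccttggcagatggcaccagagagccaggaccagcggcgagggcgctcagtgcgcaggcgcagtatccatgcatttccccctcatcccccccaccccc
Ldhb, chr6:142507958-142508207, minus strand: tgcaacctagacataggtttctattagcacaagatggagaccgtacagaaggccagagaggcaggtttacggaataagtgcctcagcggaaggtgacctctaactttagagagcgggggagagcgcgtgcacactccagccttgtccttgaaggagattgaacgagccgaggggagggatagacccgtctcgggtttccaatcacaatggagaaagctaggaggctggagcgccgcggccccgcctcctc
Pygl, chr12:70227684-70227933, minus strand: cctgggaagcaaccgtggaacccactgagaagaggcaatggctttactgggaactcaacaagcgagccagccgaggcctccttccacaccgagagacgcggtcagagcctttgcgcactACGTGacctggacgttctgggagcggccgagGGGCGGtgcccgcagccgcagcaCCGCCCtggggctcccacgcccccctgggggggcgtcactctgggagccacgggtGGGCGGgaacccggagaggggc
Ldha, chr7:46846832-46847081, plus strand: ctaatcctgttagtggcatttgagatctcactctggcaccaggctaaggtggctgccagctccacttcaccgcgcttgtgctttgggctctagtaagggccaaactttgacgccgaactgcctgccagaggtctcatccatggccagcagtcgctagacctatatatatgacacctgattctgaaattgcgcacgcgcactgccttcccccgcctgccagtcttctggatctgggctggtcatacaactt
The Pygl window held 1 match to the hypoxia response core and 3 to the GC box, at a GC content of 69.2%. The windows of Pfkfb1, Eno1, Ldhb and Ldha held none of the 3 motifs in these letters, at 42.8%, 55.6%, 56.4% and 54.4% GC. For Eno1 the RefSeq start lies 244 bases from the start of the principal GENCODE transcript, and for Ldha 49 bases.

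Across the 36 promoters, in windows from 250 bases before to 50 after the start, the hypoxia response core occurred in 16 (44.4%), the E-box in 5 (13.9%) and the GC box in 21 (58.3%). Among all 32851 mouse windows of the same length the shares were 19.6%, 7.15% and 35.7%. The E-box contains the hypoxia response core, so the 5 genes with the E-box (Pfkfb2, Pfkfb3, Fbp2, Slc16a1 and Ppp1r3c) are also among the 16. The 250 bases before the start had a median GC content of 58.8% for the 36 genes and 52.4% for all windows, and the motifs are GC-rich. These matches are descriptions of letters, not of bound sites.

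Per length, the heart's supply of these messages was dominated by muscle forms and by Ldhb. Levels compared between genes are in CPM per kilobase of summed exon length, over all 8 libraries. Ldhb, the subunit that favours lactate oxidation, stood at 1035 ± 61.0 CPM per kilobase (SD, n = 8). Eno3, the muscle enolase, followed at 835.7 ± 33.6, then Aldoa at 774.6 ± 27.4, the muscle mutase Pgam2 at 705.0 ± 65.9 and Gapdh at 623.1 ± 28.9. Pfkm (459.4 ± 18.1) and Pygm (457.6 ± 20.4), the muscle forms of phosphofructokinase and glycogen phosphorylase, could not be told apart. From Eno3 to Gapdh the ranges of neighbouring genes over the 8 libraries overlapped, while that of Ldhb lay wholly above that of Eno3. Within each single library the order from Ldhb to Gapdh was the same. At the other end lay Aldoc (0.169), Eno2 (0.311) and Slc16a3 (0.679 CPM per kilobase), the brain aldolase, the neuronal enolase and the lactate exporter of glycolytic cells. The order depends on the length used: with the spliced length of the principal transcript, Aldoa (1929), Gapdh (1814) and Ldhb (1246 CPM per kilobase) came first.

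**Figure D1:**
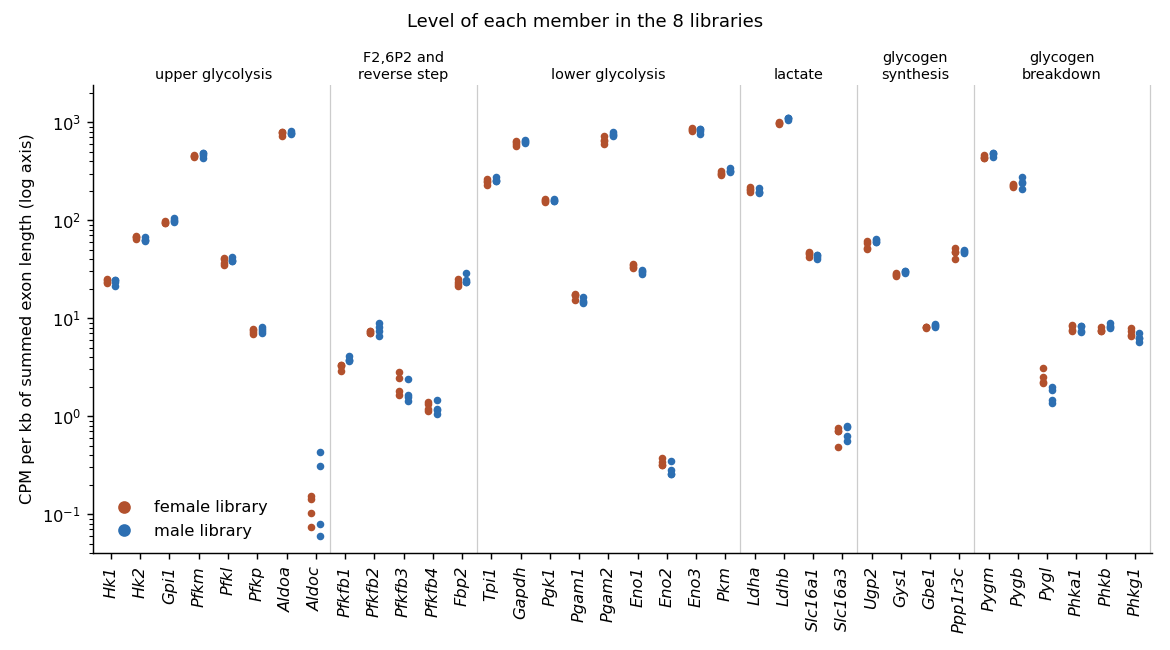
Level of each of the 36 genes in CPM per kilobase of summed exon length on a log axis, 1 point per library, coloured by sex and grouped by step. Ldhb (1035), Eno3 (835.7) and Aldoa (774.6) are highest and Aldoc (0.169) is lowest, and the points of the sexes lie close together at nearly all genes.

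Together the 36 genes took 1.91% ± 0.0511 of all counts in females and 1.9% ± 0.0395 in males (SD, n = 4 each). The mitochondrially encoded share of counts was 9.96 to 11.4% in females and 12.1 to 12.5% in males. Of the nuclear counts alone, the 36 genes took 2.14% ± 0.045 in females and 2.16% ± 0.0411 in males. On either base, their share differed by less than the spread between libraries. Summed in the scaled CPM used for levels, they reached 19329, 17983, 18933 and 18647 in females and 19304, 18556, 20052 and 19527 in males. These sums overlap, with the lowest in a female and the highest in a male library. Of the 36, 23 had a positive log2 fold change (male minus female) against 49.7% of all genes, and their median was 0.05 against -0.001 for all genes. An unadjusted p below 0.05 was reached by 10 of the 36 and by 19.5% of all genes. The sexes did not overlap in 6 of the 36 (12% of all genes): 4 were higher in males (6.39% of all genes), namely Pfkfb1, Ldhb, Gys1 and Gbe1, and 2 in females (5.66%), namely Eno1 and Pygl. For 27 of the 32 genes without a call, the 95% interval of the difference lay within 1.25-fold in both directions. The 5 with wider intervals were Aldoc, Pfkfb3, Eno2, Slc16a3 and Phkg1.

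**Figure D2:**
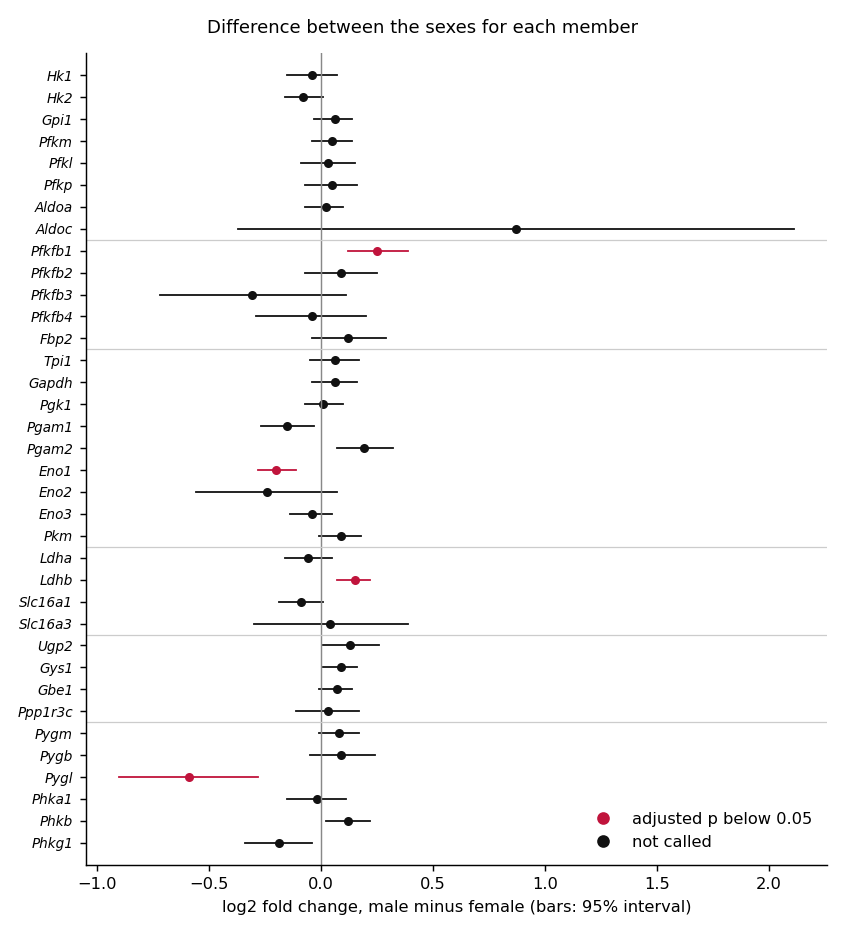
Log2 fold change (male minus female) of each of the 36 genes with its 95% interval, ordered by step and marked where the adjusted p is below 0.05. Pfkfb1 (0.25) and Ldhb (0.15) lie above 0 and Eno1 (-0.20) and Pygl (-0.59) below, while Aldoc (-0.37 to 2.11) has the widest interval.

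The upper steps of glycolysis, from hexokinase to aldolase, showed no call in 8 genes by edgeR and none by DESeq2, and no gene there had an unadjusted p below 0.05. Their median log2 fold change was 0.04. Hk2, the insulin-responsive hexokinase of muscle and the leading form here, measured 398.6, 407.8, 405.8 and 384.4 CPM in females and 366.0, 375.1, 372.1 and 399.9 CPM in males. Male library 4 lies inside the female range and the other 3 males below it, and the log2 difference was -0.08 (95% interval -0.16 to 0.01, adjusted p = 0.31 by edgeR). Hk1, the housekeeping hexokinase, averaged 205.3 ± 9.43 CPM in females and 199.9 ± 12.9 in males (SD, n = 4 each). Gpi1, the glucose phosphate isomerase, averaged 618.6 ± 15.5 and 642.7 ± 25.6 CPM.

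Pfkm, the muscle phosphofructokinase, measured 1378, 1328, 1332 and 1305 CPM in females and 1374, 1291, 1429 and 1432 CPM in males. The male libraries spanned the whole female range (log2 difference 0.05, interval -0.04 to 0.14). The liver form Pfkl averaged 168.9 ± 12.6 and 172.8 ± 7.91 CPM, and the platelet form Pfkp 69.3 ± 3.5 and 71.6 ± 4.51. Aldoa, the muscle aldolase, measured 2991, 2694, 2968 and 2940 CPM in females and 2901, 2879, 3037 and 2905 CPM in males, again overlapping (log2 difference 0.02, interval -0.07 to 0.10). Aldoc was at the limit of measurement, with 8 to 58 counts per library. Male libraries 1 and 2 held 1.41 and 1.01 CPM of it and the other 6 between 0.196 and 0.496 (log2 difference 0.87, SE 0.57, adjusted p = 0.44 by edgeR).

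Around fructose 2,6-bisphosphate, Pfkfb1 was the gene called of 5, and the median log2 fold change was 0.09. Pfkfb1 (ENSMUSG00000025271, chrX:150588229-150643878) encodes the form of the bifunctional kinase and phosphatase best known from liver and skeletal muscle. It measured 13.3, 13.0, 11.7 and 13.4 CPM in females and 15, 14.6, 16.4 and 15.2 CPM in males, so that the lowest male lies above the highest female. Against its SE of 0.06 the log2 difference was 0.25 (interval 0.12 to 0.39, adjusted p = 0.046 by edgeR). With a library left out it lay between 0.21 and 0.28, and the adjusted p between 0.06 and 0.12. Summed liver markers were also higher in every male than in every female library, and their part in the difference was not tested. Of its exon length, 3.06% overlaps Apex2 on the opposite strand. Pfkfb1 is 1 of 3 X-linked genes among the 36. The others, Pgk1 (log2 difference 0.01) and Phka1 (-0.02), were not called, and 4.34% of the 507 X-linked genes tested were.

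Pfkfb2, the heart form, was the leading paralog. It measured 53.6, 53.9, 51.5 and 51.7 CPM in females and 58.5, 47.9, 53.7 and 64.3 CPM in males. The females lie close together, while the males reach both below and above them (coefficient of variation 2.35% against 12.5%). The log2 difference was 0.09 (SE 0.07, adjusted p = 0.54 by edgeR). Of the Pfkfb2 exon length, 17.4% overlaps Gm29427 on the same strand, which held 198 counts over all libraries against 16882 for Pfkfb2. Pfkfb3, the inducible form with strong kinase activity, measured 12.4, 18.4, 21.4 and 13.6 CPM in females and 18.3, 11.8, 10.8 and 12.4 CPM in males. Its high libraries were female 2, female 3 and male 1. Female libraries 2 and 3 also had the highest summed white adipocyte markers (117.4 and 133.0 CPM), and male library 1 the highest summed leukocyte markers (414.7 CPM against 167.1 to 242.3 in the other 7). Their part in the level of Pfkfb3 was not tested. Pfkfb4 averaged 6.15 ± 0.589 CPM in females and 5.97 ± 0.843 in males. Fbp2, the muscle fructose bisphosphatase that runs the step backwards, averaged 30.6 ± 2 and 33.4 ± 3.72 CPM.

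In the lower steps of glycolysis, Eno1 was called of 9 genes, and the median log2 fold change was 0.01. Eno1 (ENSMUSG00000063524, chr4:150236721-150248879) encodes the ubiquitous alpha enolase, the form of the embryonic heart that Eno3 takes over from during development. It measured 189.4, 179.0, 191.4 and 176.7 CPM in females and 165.7, 158.8, 164.9 and 153.9 CPM in males. The highest male lies below the lowest female, and the log2 difference was -0.20 (SE 0.04, interval -0.28 to -0.11, adjusted p = 0.023 by edgeR). With a library left out it was called in 4 of 8 fits, with an adjusted p between 0.032 and 0.065. Eno3 carried most of the enolase message and measured 1524, 1424, 1465 and 1487 CPM in females and 1424, 1335, 1485 and 1485 CPM in males. Its males spread through and below the female range (log2 difference -0.04, adjusted p = 0.64 by edgeR). The near-identical Eno1b held 52 counts over the 8 libraries. How reads matching both genes were counted is not given, so the level and share of Eno1 may be understated. Eno2 averaged 1.59 ± 0.125 and 1.34 ± 0.198 CPM, from 50 to 67 counts per library.

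Phosphoglycerate mutase had differences of opposite sign in its muscle and brain forms, without a call for either. Pgam2, the muscle form, measured 609.2, 504.8, 535.2 and 559.7 CPM in females and 630.9, 619.0, 675.2 and 603.3 CPM in males. Only female library 1 reaches into the male range. Its log2 difference was 0.19 (interval 0.07 to 0.32, adjusted p = 0.088 by edgeR), and without female library 1 it was 0.25 with an adjusted p of 0.038. DESeq2 gave Pgam2 an adjusted p of 0.018 on all 8 libraries. Pgam1 measured 31.6, 27.9, 32.1 and 31.7 CPM in females and 30.0, 27.0, 27.7 and 26.5 CPM in males. Female library 2 lies among the males, and the log2 difference was -0.15 (adjusted p = 0.17 by edgeR).

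The remaining enzymes of this stretch had no call. Gapdh averaged 2523 ± 128.6 CPM in females and 2628 ± 96.2 in males, a log2 difference of 0.06. Tpi1, the triose phosphate isomerase, averaged 684.5 ± 41.7 and 713.0 ± 31.8 CPM, and Pgk1, the phosphoglycerate kinase, 356.5 ± 12.1 and 359.9 ± 9.96. Pkm, the pyruvate kinase of muscle, averaged 1512 ± 60.1 and 1605 ± 67 CPM (log2 difference 0.09, adjusted p = 0.29 by edgeR). These counts do not separate its spliced forms, and 15.3% of its exon length overlaps Gm49759 on the same strand.

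**Figure D3:**
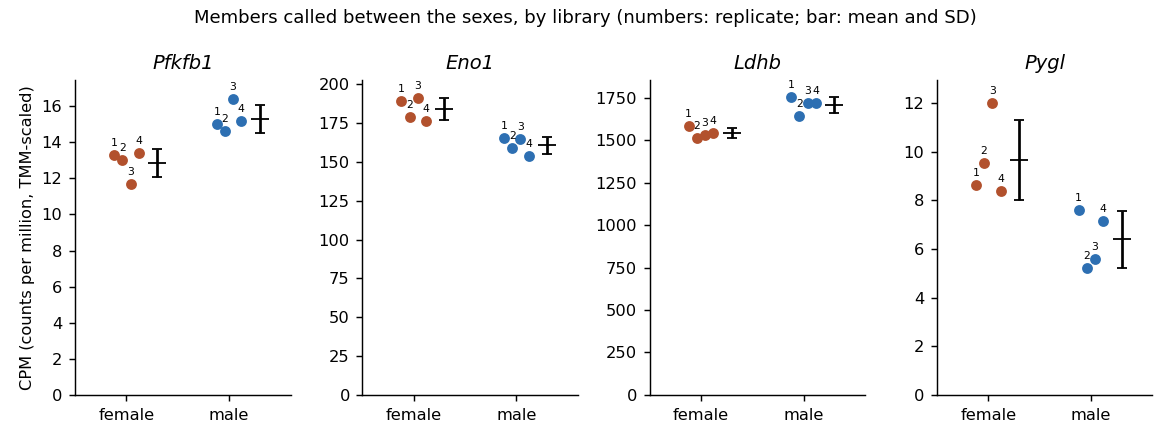
CPM (scaled library sizes, axes from 0) of Pfkfb1, Eno1, Ldhb and Pygl, 1 point per library with its replicate number and a bar for the mean and SD of each sex. The 4 male libraries lie above all females for Pfkfb1 (14.6 to 16.4 against 11.7 to 13.4 CPM) and Ldhb and below all females for Eno1 and Pygl (5.23 to 7.6 against 8.39 to 12 CPM).

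Of the 4 lactate genes, Ldhb was called, and the median log2 fold change was -0.01. Ldhb (ENSMUSG00000030246, chr6:142490249-142507957) encodes the H subunit that makes up most lactate dehydrogenase of the heart. It measured 1583, 1515, 1531 and 1540.0 CPM in females and 1753, 1640, 1720 and 1717 CPM in males, with a gap between the highest female and the lowest male. The log2 difference was 0.15 (SE 0.03, interval 0.07 to 0.22, adjusted p = 0.042 by edgeR). Left-out fits called it once of 8, with an adjusted p between 0.036 and 0.11. Ldha, the M subunit of glycolytic muscle, measured 717.1, 639.6, 676.4 and 696.1 CPM in females and 629.1, 645.2, 704.7 and 643.7 CPM in males. The sexes overlap almost wholly, and the log2 difference was -0.06 (interval -0.16 to 0.05, adjusted p = 0.56 by edgeR).

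Slc16a1 encodes MCT1, the carrier through which the heart takes up lactate. It measured 205.4, 201.0, 186.5 and 209.4 CPM in females and 178.9, 184.6, 195.7 and 193.8 CPM in males. Female library 3 lies among the males (log2 difference -0.09, interval -0.19 to 0.01, adjusted p = 0.29 by edgeR). Slc16a3, which encodes the exporter MCT4, averaged 3.55 ± 0.645 CPM in females and 3.66 ± 0.605 in males.

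Glycogen synthesis had no call by edgeR or DESeq2 in 4 genes, of which 2 (Ugp2 and Gys1) had an unadjusted p below 0.05. All 4 log2 fold changes were positive, from 0.03 to 0.13, with a median of 0.08. Gys1, the muscle glycogen synthase, measured 136.8, 131.2, 137.8 and 130.1 CPM in females and 144.1, 137.9, 143.1 and 144.2 CPM in males. The sexes do not overlap, though male library 2 and female library 3 are nearly level (log2 difference 0.09, SE 0.03, adjusted p = 0.20 by edgeR). Gbe1, the branching enzyme, measured 43.5, 43.6, 42.3 and 43.3 CPM in females and 45.8, 45.1, 46.4 and 43.7 CPM in males. Its groups are also separate by a small margin (log2 difference 0.07, adjusted p = 0.31 by edgeR), and its biological coefficient of variation within a sex, 0.0386, was the lowest of the 36 genes. Ugp2, which makes UDP-glucose, averaged 171.6 ± 14.9 and 188.3 ± 6.8 CPM. Ppp1r3c, a subunit that brings a phosphatase to glycogen, averaged 127.5 ± 13.3 and 130.1 ± 3.67 CPM.

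In glycogen breakdown Pygl was called of 6 genes, and the median log2 fold change was 0.03. Pygl (ENSMUSG00000021069, chr12:70190811-70231488) encodes the liver form of glycogen phosphorylase, the enzyme that frees glucose 1-phosphate from glycogen. It measured 8.64, 9.54, 12 and 8.39 CPM in females and 7.6, 5.23, 5.58 and 7.16 CPM in males, from 206 to 436 counts per library. All males lie below all females, and the log2 difference was -0.59 (SE 0.14, interval -0.90 to -0.28, adjusted p = 0.042 by edgeR). With a library left out it lay between -0.69 and -0.47 and was called in 2 of 8 fits, with an adjusted p between 0.027 and 0.11. Female libraries 2 and 3, the highest in Pygl, also had the highest summed white adipocyte markers. The part of adipocytes in the difference was not tested.

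The abundant phosphorylases showed no such difference. Pygm, the muscle form, measured 1403, 1435, 1485 and 1402 CPM in females and 1530, 1421, 1552 and 1553 CPM in males. Male library 2 lies among the females and the other 3 males above them (log2 difference 0.08, interval -0.01 to 0.17, adjusted p = 0.29 by edgeR). Pygb, the brain form, averaged 1091 ± 35.9 CPM in females and 1164 ± 126.4 in males, whose range from 1012 to 1322 encloses the female one. Of the phosphorylase kinase subunits that switch the enzyme on, Phkb averaged 56.7 ± 2.23 and 61.7 ± 3.26 CPM (adjusted p = 0.16 by edgeR). Phka1 averaged 49.6 ± 3.52 and 48.9 ± 3.65 CPM. The catalytic Phkg1 averaged 46.9 ± 3.64 and 41.0 ± 3.55 CPM (log2 difference -0.19, adjusted p = 0.15 by edgeR), and 9.68% of its length overlaps Sumf2 on the opposite strand.

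Within each family, counted among the 36 genes alone, the same paralog led in all 8 libraries. Shares are of CPM per kilobase summed over the family, tested by exact two-sided permutation tests over the 8 libraries, whose smallest possible p is 0.029, and adjusted over 9 shares. Ldhb held 82.3, 83.3, 82.7 and 82.3% of lactate dehydrogenase message in females and 85.5, 84.3, 83.7 and 84.9% in males. The sexes do not overlap, at 1.93 points higher in males (exact permutation p = 0.029, adjusted p = 0.13). Pgam2 held 97.5% ± 0.147 of the mutase message in females and 98% ± 0.119 in males (SD, n = 4), also without overlap (exact permutation p = 0.029, adjusted p = 0.13). Eno3 held 96.1% ± 0.146 and 96.5% ± 0.208 of the enolase message (exact permutation p = 0.057, adjusted p = 0.17). No share passed the adjustment, which at the smallest possible p could be passed only if most of the 9 shares reached it, so that this says little about whether shares differ. With Eno4 and Ldhc added to their families, Eno3 held 96.1% and 96.5% and Ldhb 82.7% and 84.6% (exact permutation p = 0.029 and adjusted p = 0.051 for both). Eno4 held 14 counts over all libraries. Ldhc held 0, so the Ldhb share could not change, and its adjusted p fell only through the p-values of other shares.

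Among the 36 genes alone, the other 6 leading shares differed by at most 0.827 points between the sexes, with an adjusted p of 0.9 or more. Hk2 held 73.5% and 73% of hexokinase message, Pfkm 90.8% and 90.9% of phosphofructokinase, and Slc16a1 98.5% and 98.4% of the 2 lactate carriers. Aldoa held nearly all aldolase message, Aldoc reaching 0.0559% at most. Pygm held 66% and 65.9% of phosphorylase message, with Pygb at 33.7% and 33.8% and Pygl at 0.373% and 0.233%. The Pfkfb family was the most mixed: Pfkfb2 held 52.3% in females and 53.1% in males, Pfkfb1 23% and 26.4%, Pfkfb3 15.6% and 12.1%, and Pfkfb4 9.07% and 8.43%. Shares depend on the length used. That of Eno1 was 3.88% in females and 3.51% in males by summed exon length and 8.38% over all libraries by the principal transcript. By the principal transcript, Hk2 held 57.3%, Ldhb 76.6% and Pfkfb2 48.5% over all libraries.

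**Figure D4:**
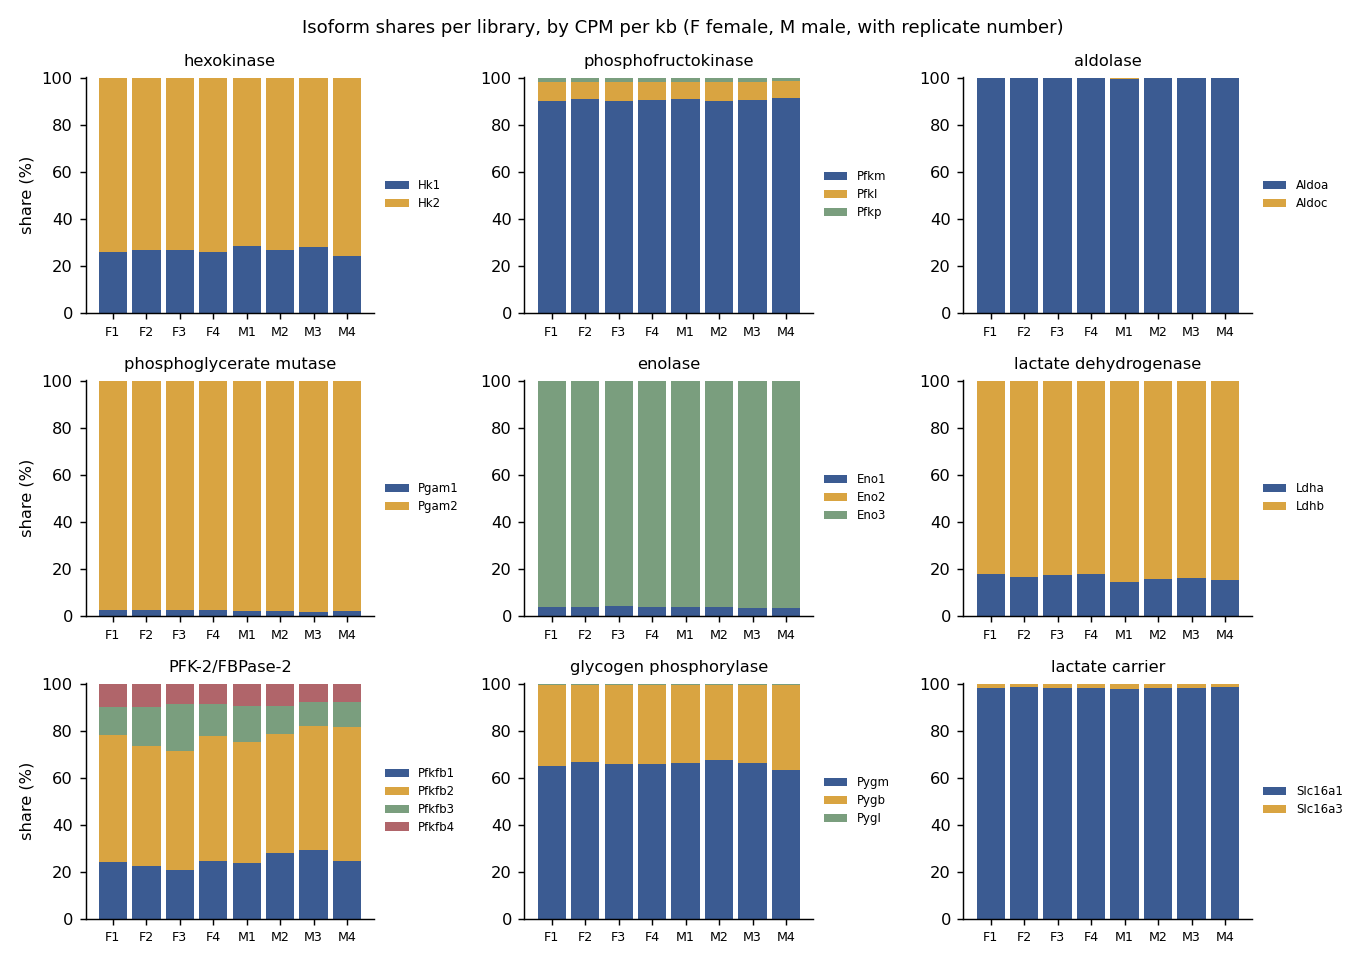
Share (%) of each paralog in 9 families by CPM per kilobase, 1 stacked bar per library. The same paralog leads each family in every library. Ldhb holds 82.3 to 83.3% in females and 83.7 to 85.5% in males, and the Pfkfb family is divided among 4 genes.

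Of 69 further genes of the pathway, 64 were tested and 8 were called, 4 in each direction (12.5% against 3.79% of all genes). Their lists came from general knowledge, written with earlier results of these data known, so this comparison is only a description. Among 10 other glycolysis genes, 3 were higher in males (2.03% of all genes) and the median log2 fold change was 0.09 (-0.001 for all genes). One of them was Ldhd, for D-lactate dehydrogenase, named after its values were seen, with 59.4 ± 1.9 CPM in the female and 69.7 ± 3.67 CPM in the male libraries (log2 difference 0.23, SE 0.04, adjusted p = 0.016 by edgeR). Of its length, 42.2% overlaps Znrf1 on the opposite strand, and with the strand setting not stated their reads cannot be told apart.

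Of 18 other glycogen genes, 2 were higher in females (1.76% of all genes), and the median log2 fold change was -0.04 (-0.001 for all genes). Ppp1r3b, another subunit that brings a phosphatase to glycogen, averaged 37.2 ± 4.46 CPM in the female and 26.5 ± 1.55 in the male libraries, a 1.41-fold difference (adjusted p = 0.0066 by edgeR). Gys2, the liver glycogen synthase, averaged 0.559 ± 0.297 and 0.0845 ± 0.0543 CPM (log2 difference -2.72, SE 0.5, adjusted p = 0.013 by edgeR), on 93 counts over all libraries. White adipocyte markers were higher in females throughout, and their part in both was not tested.

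Of 18 genes on branches from glycolysis, 2 were higher in females (1.76% of all genes), with a median of -0.04. Tkt, the transketolase of the pentose phosphate pathway, averaged 47.3 ± 7.29 and 32.1 ± 1.92 CPM (1.47-fold, adjusted p = 0.0092 by edgeR). Gpd2, the mitochondrial glycerol phosphate dehydrogenase, averaged 17.8 ± 2.63 and 13.6 ± 0.754 CPM (log2 difference -0.39, adjusted p = 0.045 by edgeR). With a library left out it was called in 1 of 8 fits, with an adjusted p between 0.017 and 0.12, highest without male library 3. Both genes were highest in female libraries 2 and 3, at 54.0 and 52.2 CPM of Tkt and 20.5 and 19.5 of Gpd2, which also had the highest summed white adipocyte markers. The part of adipocytes in these differences was not tested. Of 14 regulators of glycolytic genes, 1 was called, higher in males (2.03% of all genes). It was Egln1, the oxygen sensor that marks HIF for breakdown, at 446.7 ± 12.9 and 524.0 ± 19.7 CPM (log2 difference 0.23, adjusted p = 0.011 by edgeR). None of 4 further carriers and partners was called by edgeR, 2 had an unadjusted p below 0.05 and DESeq2 called 1. That was Slc16a7, the carrier MCT2, at 8.13 ± 0.765 and 6.39 ± 0.581 CPM (log2 difference -0.35, adjusted p = 0.062 by edgeR).

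Within a sex, the glycolysis enzymes tended to be high or low together in a library. Of the 17 enzyme genes from hexokinase to pyruvate kinase, 11 were highest of the 4 females in female library 1 and 9 were lowest in female library 2. Male library 3 held the highest value of 10 of the 17, and male library 4 the lowest of 8. Across all genes tested, a library held the lowest value in 22.2 to 28.2% and the highest in 23.3 to 27.3%. The median deviation of the 17 genes from their sex's mean log2 level was 0.05 in female 1, -0.04 in female 2, 0.06 in male 3 and -0.03 in male 4. The genes share these libraries and their scaling, so the counts are a description.

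**Figure D5:**
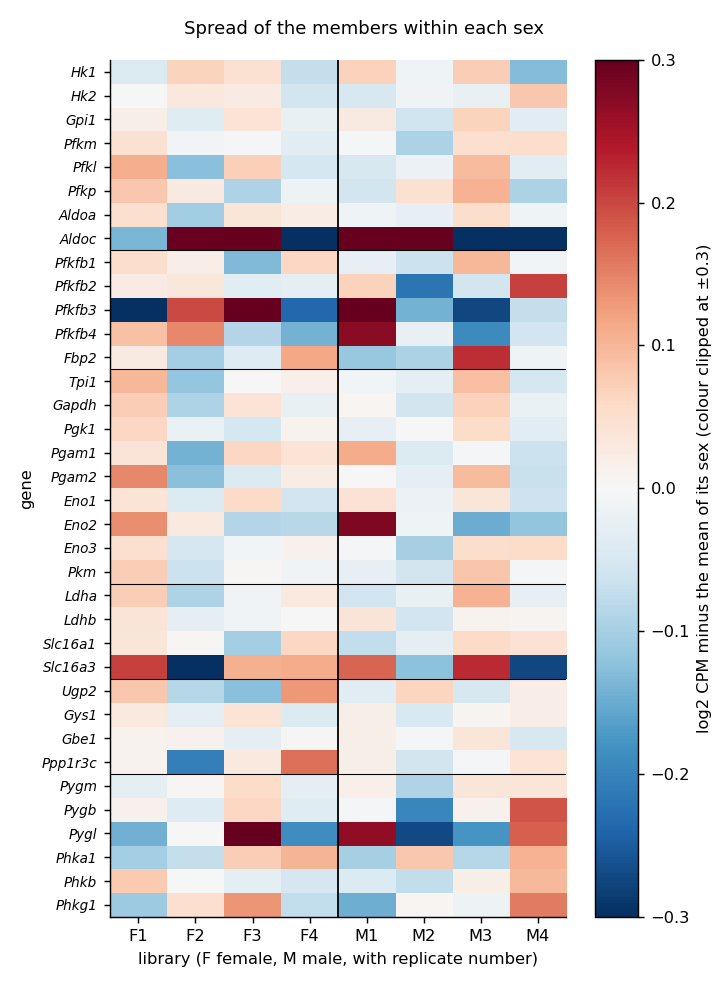
Deviation of each of the 36 genes from the mean log2 CPM of its sex, in each of the 8 libraries, with genes in pathway order and the colour scale ending at 0.3 on either side. Female library 1 and male library 3 are mostly above 0 at the glycolysis enzymes (medians 0.05 and 0.06) and female library 2 mostly below (-0.04).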

How the data were processed

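RNA-seq of 8 mouse heart samples (4 female, 4 male) was analysed from the deposited table of raw counts, whole reads per gene. The submitters' processing notes list, without an order, featureCounts, Subread 1.5.2, Trimmomatic 0.36 and STAR 2.5.2b, with the builds GRCm38 and mm10. Whether counting used strand, how multi-mapping reads were treated and which annotation was used are not given in the sources used here, so overlapping genes and near-identical copies are uncertain. Of the 36 genes, 6 have named copies, which held at most 86 counts each. Low counts of a copy do not show that reads shared with it, as for Pgam1 or Eno1, were counted for the gene itself. The authors also deposited a normalized signal, which equals the count divided by a size factor (0.864 to 1.196, found from the values, 100% whole within 0.01 when multiplied back). A deposited table for each sample repeats its counts and gives the summed exon lengths used for levels per kilobase. No pair of libraries of a sex agreed within sampling noise (chi-square per degree of freedom 7.74 to 24.5).

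Low genes were removed (filterByExpr, at least 10 counts and a total of 15), the rest scaled by TMM and tested with edgeR 4.0.16 in R 4.3.3 (quasi-likelihood F-test, male minus female, Benjamini-Hochberg over 16180 genes, threshold 0.05), after the script was tested on simulated data. CPM used the scaled library sizes, log2 CPM a prior count of 2, and 95% intervals the fit's degrees of freedom. The common biological coefficient of variation was 0.0814. Shares were tested with scipy 1.17.1. Promoter letters came from RefSeq on GRCm38.p6, which matched all 36 genes by symbol, 1 window per gene (the start nearest to that of the principal transcript in GENCODE M21), while the share over all windows counts every start.

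All 36 genes could be named. Values in every library were given for called genes and for the leading gene of each family, and of other lists up to 2 called genes per direction with the smallest p, or the gene with the smallest p. Some genes that this rule names, and shares that include them, are not reported here. The genes, lists, motifs and markers were chosen with earlier results of these data known. Alternatives were DESeq2 1.42.0 (test and size factors), upper quartile scaling, limma 3.58.1 (voom, and log2 of the deposited signal plus 1), other filters (none, or 1 CPM in 4 libraries), thinning to the smallest total, removal of mitochondrially encoded genes, a replicate block, each library left out, other share bases, and a promoter window without the bases after the start. Lengths of principal transcripts were added after the data were seen.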

Additional observations from a re-analysis of the deposited data

Results flagged for a closer look

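In 90 groups of 4 libraries (the levels and leading shares of the genes, by sex), 3 held a library far from the other 3 by Dixon's test at 95%, where chance gives about 1 in 20, or 4.5. Aldoa stood at 3037 CPM in male library 3 against 2879 to 2905 in the other males. Pgam1 stood at 27.9 CPM in female library 2 against 31.6 to 32.1 in the other females. Gys1 stood at 137.9 CPM in male library 2 against 143.1 to 144.2 in the other males. Male library 3 and female library 2 were also those in which many glycolysis genes were highest and lowest of their sex.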

How the results depend on the processing

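The 4 calls among the 36 genes became 5 with DESeq2 (Pgam2 added), 4 without a filter (Pgam2 in place of Ldhb), 3 on the deposited signal (without Ldhb), 2 with libraries thinned to the smallest total (Eno1 and Ldhb) and 1 with the replicate block (Eno1). They were the same 4 genes under the other 5 settings run on all 8 libraries. With 1 library left out the count was 0 to 2: 0 without female 3 or male 4 (8 and 9 genes with an unadjusted p below 0.05 by edgeR), 1 without female 1, female 2, male 2 or male 3, and 2 without female 4 or male 1. Over all genes, 613 calls became 957 with DESeq2, 427 with the replicate block and 315 to 490 with 1 library left out, lowest without male 3 (315), female 2 (354) and female 3 (379). The cause of these changes was not tested. Fits with a library left out or with thinned libraries also had fewer libraries or reads. Of the other pathway genes 8 were called, and 6 to 11 under all alternatives. The replicate numbers showed no sign of pairing the libraries: deviations of same-numbered libraries correlated between -0.047 and 0.054, and no library correlated best with its own number. The labels do not say whether the numbers pair samples, and these correlations cannot exclude it. Under the replicate block adjusted p was 0.032 for Eno1, 0.093 for Ldhb, 0.11 for Pfkfb1 and 0.091 for Pygl. The call of Gpd2 was also lost there (0.051), and no other named call was.

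No log2 difference of the 36 genes changed sign except with a library left out, for 8 genes near 0: Hk1 (-0.06 to 0), Pfkl (-0.01 to 0.07), Aldoa (-0.02 to 0.03), Pfkfb4 (-0.14 to 0.02), Pgk1 (-0.01 to 0.03), Slc16a3 (-0.08 to 0.13), Ppp1r3c (-0.04 to 0.09) and Phka1 (-0.06 to 0.01). The difference in share changed sign for Pfkm (-0.12 to 0.236 points), Pfkfb2 (-0.584 to 1.61) and Pygm (-0.577 to 0.764) with a library left out, and for Slc16a1 with Slc16a7 added (0.0933). With 250 bases before the start alone, 14 of the 36 promoters held the hypoxia response core, 5 the E-box and 18 the GC box. The lowest counts per library were those of Aldoc (8 to 58), Eno2 (50 to 67) and Slc16a3 (95 to 181).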
